A study of Mus musculus with 2 samples.

Results

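The genes described here are 10 targets of the tumour suppressor p53, chosen by name from the 32285 genes counted in both libraries: Cdkn1a, Ccng1, Plk2, Mdm2, Bax, Bbc3, Apaf1, Trp53inp1, Phlda3 and Eda2r. All 10 had UMIs in both libraries, and 9 reached a level of 10 CPM in at least one of them. A UMI (unique molecular identifier) marks one captured RNA molecule, and CPM gives the UMIs of a gene relative to all UMIs of the kept cells in a library. The cells were established mouse THY-1+ germ cells, a culture enriched for spermatogonial stem cells and kept on STO feeders, a mouse fibroblast line. One library came from cells cultured for 48 h without FGF (control) and one from cells cultured for 48 h with 20 ng/ml FGF9 (FGF9-treated). Both cultures had been grown in serum-free medium that held GDNF at 20 ng/ml, its co-receptor GFRA1 at 150 ng/ml and FGF2 at 1 ng/ml. According to the methods of the study, the cells were then moved to medium with FGF9 or with albumin, so that the control cells may have lacked GDNF and FGF2 as well, which the labels do not settle. The cells derived from several mice, which the counts do not tell apart.

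p53 is a transcription factor that is kept scarce in resting cells, because MDM2 marks it for destruction, and that accumulates after DNA damage and other stress. Its targets halt the cell cycle, trigger apoptosis or act back on p53 itself. Germline stem cells are known for a sensitive damage response, and p53 takes part in the loss of spermatogonia after irradiation.

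Cells were kept with at least 2000 genes, at most 20% mitochondrial UMIs and fewer than 40 UMIs of the fibroblast genes Vim and S100a6 together. This left 4157 of 5312 control barcodes with 67689739 UMIs and 4537 of 5959 FGF9-treated barcodes with 67068085 UMIs. The median control cell held 14824 UMIs and the median FGF9-treated cell 13067, and the medians of the mitochondrial share were 9.48% and 9.16%. Barcodes above the limit on Vim and S100a6, called feeder-like below, numbered 31 and 63. The libraries shared 11 barcodes, 10 of them among kept cells. Germ cell markers such as Dazl (1729 and 1823 CPM) and Ddx4 (437 and 426 CPM) were abundant in the kept cells. Feeder markers there ranged widely, with the collagen gene Col3a1 at 0.355 and 0.790 CPM and Lgals1 at 95.3 and 136.5 CPM. The 12 feeder markers together stood at 168 and 236 CPM, beside 15601 and 22251 CPM in feeder-like barcodes. With 1 library per treatment there was no test between treatments. All ranges in brackets are 95% intervals of counting error only, and "higher" and "lower" describe these libraries.

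Promoter sequence was examined because several of these genes were found together in the same cells, as described below. RefSeq windows of the 250 bases before a transcript start (build GRCm38.p6) were held for 9 of the 10 genes. An exact p53 half-site, the decamer consensus bound by a p53 dimer, lay in a window of 4 genes (Cdkn1a, Ccng1, Mdm2 and Bax). Counted by window, it lay in 4 of the 12 windows of these 9 genes and in 7.13% of all 32851 windows. Sequence outside these 250 bases, such as introns, was not searched. The consensus reads the same on both strands, so a single search covers both. A stretch of 2 joined half-sites with at most 2 letters off the consensus lay in a window of Cdkn1a and of Ccng1, each with 1 letter off, and in 0.661% of all windows. It began 51 bases before the transcript start of the Cdkn1a window shown here and 195 bases before that of Ccng1. A further Cdkn1a window, set by a start downstream (chr17:29093519-29093768), had no half-site and no joined half-sites. These matches are a description of letters and say nothing on binding. Cdkn1a and Ccng1 are shown for their joined half-sites, Mdm2 for a single half-site in a gene that was spread evenly over cells, and Plk2 as a gene held in few cells whose window had no match. Capitals mark half-sites and joined half-sites.
Cdkn1a, chr17:29090729-29090978 (plus strand): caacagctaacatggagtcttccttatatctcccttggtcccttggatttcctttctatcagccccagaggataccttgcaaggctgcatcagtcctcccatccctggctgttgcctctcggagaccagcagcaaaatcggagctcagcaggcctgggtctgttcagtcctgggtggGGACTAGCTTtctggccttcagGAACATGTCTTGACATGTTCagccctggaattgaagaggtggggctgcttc
Ccng1, chr11:40755287-40755536 (minus strand): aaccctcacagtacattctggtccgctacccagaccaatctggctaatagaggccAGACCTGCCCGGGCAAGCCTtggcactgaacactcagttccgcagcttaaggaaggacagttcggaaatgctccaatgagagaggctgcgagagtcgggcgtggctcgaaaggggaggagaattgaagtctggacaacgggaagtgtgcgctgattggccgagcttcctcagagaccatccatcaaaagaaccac
Mdm2, chr10:117710759-117711008 (minus strand): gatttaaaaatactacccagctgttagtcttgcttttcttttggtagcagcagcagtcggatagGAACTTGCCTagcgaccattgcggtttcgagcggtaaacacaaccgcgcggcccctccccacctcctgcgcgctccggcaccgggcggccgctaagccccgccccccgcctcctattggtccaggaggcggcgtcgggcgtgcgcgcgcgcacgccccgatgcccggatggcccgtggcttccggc
Plk2, chr13:110394794-110395043 (plus strand): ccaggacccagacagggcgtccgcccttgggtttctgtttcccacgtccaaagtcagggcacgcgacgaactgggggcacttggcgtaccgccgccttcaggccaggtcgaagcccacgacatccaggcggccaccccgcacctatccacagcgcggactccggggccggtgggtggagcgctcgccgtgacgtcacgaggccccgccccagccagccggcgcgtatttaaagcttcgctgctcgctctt

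The 10 genes stood at very different levels. Levels of different genes can be set side by side because the 3' method gives one tag per molecule whatever the transcript length, although capture can differ between genes. Bax, which opens the mitochondrial membrane in apoptosis, was the most abundant, at 487 CPM in control cells (482 to 492) beside 391 CPM after FGF9 (387 to 396). Mdm2, the ubiquitin ligase of p53, followed with 128 and 136 CPM, and Trp53inp1, a stress-induced nuclear protein that promotes cell death, with 80.8 and 63.6 CPM. These were the genes most widely detected, Bax in 99.3% and 97.4% of cells and Mdm2 in 82.6% and 80.6%. Ccng1, which encodes cyclin G1, stood at 48.8 and 55.5 CPM. The remaining 6 genes lay between 2.08 and 22.7 CPM, with Eda2r, a receptor of the TNF receptor family, lowest (141 UMIs or 2.08 CPM in control, 197 UMIs or 2.94 CPM with FGF9). Among these 6 genes, Phlda3 (12.5 CPM, 11.7 to 13.4), Bbc3 (10.6 CPM, 9.82 to 11.4) and Plk2 (10.3 CPM, 9.50 to 11.04) in control cells included neighbours whose intervals overlapped, so that their order is not settled.

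Between the libraries most of the 10 genes differed little. A gene was called higher or lower where its log2 ratio of FGF9-treated over control CPM exceeded 0.5 in size and the interval left out 0, among genes that reached 10 CPM in either library. On this rule 2 of 9 genes were higher in FGF9-treated cells, beside 5.78% of all 8877 genes, and 1 of 9 was lower, beside 5.95%. The median log2 ratio was 0.15 over the 10 genes and 0.12 over the 9 that reached 10 CPM, and that of all 8877 genes was -0.03.

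Plk2 and Cdkn1a were called higher in the FGF9-treated library and Ccng1 was not. Plk2, a polo-like kinase, had 694 UMIs (10.3 CPM) in the control and 1288 UMIs (19.2 CPM) in the FGF9-treated library, a log2 ratio of 0.91 (0.77 to 1.04). Cdkn1a, which encodes the cyclin-dependent kinase inhibitor p21, had 15.7 CPM (1061 UMIs) and 22.7 CPM (1521 UMIs), a log2 ratio of 0.53 (0.42 to 0.65). Ccng1 differed less, with a log2 ratio of 0.19 (0.12 to 0.25). The call of Cdkn1a was lost with the deepest cells left out (past 2.5 times the median depth, 0.44) and in cells with no UMI of the feeder genes Vim and S100a6 (0.28), and its direction turned in the cells with least cell cycle RNA, as given below. Mdm2, which closes the feedback loop on p53, had a log2 ratio of 0.09 (0.05 to 0.13).

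The genes of apoptosis were not of one direction. Bbc3, which encodes the BH3-only protein PUMA, was called lower, from 10.6 CPM (716 UMIs) to 7.47 CPM (501 UMIs), with a log2 ratio of -0.50 (-0.67 to -0.34) that lay at the limit of the call. Bbc3 reached 10 CPM in the control library alone, so a call could only be lower. The call was lost under other scalings of the libraries (TMM or median of ratios) and in most other choices of cells, while the sign of the ratio held, between -0.56 and -0.42 over the settings tried. Without the top 3% of cells by these genes the ratio was -0.56, and the call was lost to the limit of 10 CPM. Bax had a log2 ratio of -0.32 (-0.34 to -0.29) and Trp53inp1 of -0.35 (-0.40 to -0.29), both below 0 but within the limit of 0.5. Apaf1, the scaffold of the apoptosome, had 9.07 and 10.5 CPM, a log2 ratio of 0.20 (0.05 to 0.36). Phlda3, an inhibitor of the survival kinase AKT, had 12.5 and 13.5 CPM, and its interval held 0 (0.12, -0.02 to 0.25). Eda2r had a log2 ratio of 0.50 (0.18 to 0.82) and was too scarce to be called.

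**Figure D1:**
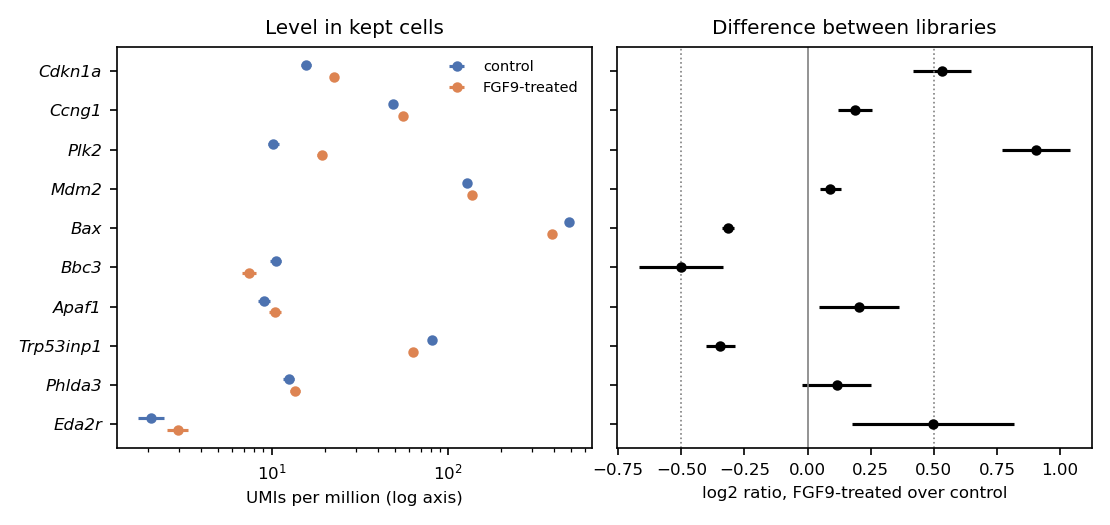
Left, CPM on a log axis of each gene in the kept cells of the control and FGF9-treated libraries; right, log2 ratio of FGF9-treated over control, with dotted lines at 0.5 in size; bars are 95% counting intervals. Plk2 (0.91) and Cdkn1a (0.53) lie past the line on the right and Bbc3 (-0.50) reaches that on the left.

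The next question was whether these genes were spread over the culture or held in few cells. For each gene and library, the share of its UMIs in the 3% of cells with most of them was set against the share that Poisson counting would give if every cell had the same level per UMI of its depth. Cdkn1a was the most concentrated, with 68.2% of its control UMIs in the top 3% of cells, where equal levels would give 25.0%. In FGF9-treated cells the share was 57.4%, against 20.5%. It was detected in 421 control cells (10.1%) and 626 FGF9-treated cells (13.8%), and single cells held up to 26 and 35 of its UMIs. Cdkn1a thus combined a low summed level with large counts in single cells.

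Ccng1 had 36.3% of its UMIs in the top 3% of control cells (13.9% under equal levels) and 34.6% in FGF9-treated cells (14.0%). Plk2 had 55.0% (27.1%) and 40.3% (23.0%), and Phlda3 had 42.7% (25.7%) and 41.4% (26.0%). In each library these 4 genes were counted as having at least 1.5 times the share under equal levels, beside 0.978% of 8589 genes with at least 10 CPM in control, and 1.4% of 8549 such genes after FGF9. On cells thinned to 5000 UMIs, 2 genes in each library passed this limit. By the ratio on unthinned cells Cdkn1a ranked 5 and 3 among all such genes, and Ccng1 7 and 6. Plk2 ranked 20 and 49, and Phlda3 51 and 83. Bbc3 lay on the limit of 1.5 times in control cells (40.2% against 26.8%). Its ratio was 1.50004 from its own shares and 1.49986 from the approximation used to rank all genes, and it was not counted. In FGF9-treated cells Bbc3 was under 10 CPM (44.1% against 33.5%).

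The abundant genes were nearly even across cells. Mdm2 had 11.7% of its UMIs in the top 3% of cells in both libraries, where equal levels would give 10.4% and 10.8%. Bax had 9.74% (8.48%) and 11.1% (9.00%), and Trp53inp1 had 15.6% (11.8%) and 18.9% (13.6%). By its ratio to equal levels (1.32 and 1.39), Trp53inp1 ranked 229 of 8589 genes in control and 203 of 8549 after FGF9. The medians of all such genes were 1.06 and 1.07. Apaf1, which was scarce, was also close to even at 32.7% (28.4%) and 33.0% (28.1%). For Eda2r the measure has little range, since a gene with so few UMIs has 90.4% and 71.7% of them in the top 3% of cells by counting alone. Concentration therefore did not follow the level of a gene alone, as Apaf1 and Plk2 had similar CPM in control cells.

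**Figure D2:**
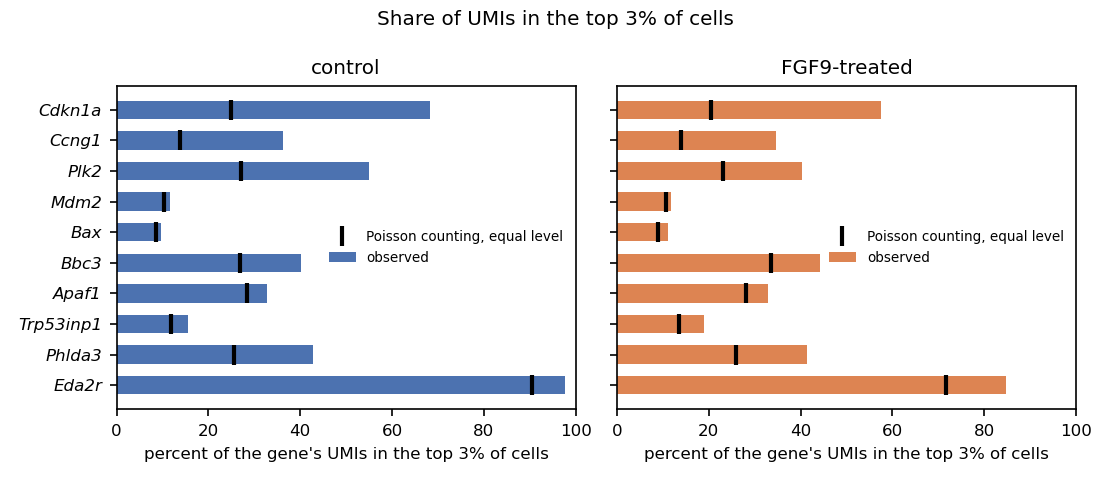
Percent of each gene's UMIs in the 3% of cells with most of them (bars) in each library, with the percent under Poisson counting at an equal level per depth (black ticks). The bar of Cdkn1a reaches 68.2% and 57.4%, more than 2.5 times its tick, while the bars of Mdm2 and Bax end close to theirs.

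To ask whether the genes shared their cells, every cell was thinned to 5000 UMIs before detection was compared, and 16 control and 22 FGF9-treated cells below that depth were set aside. Of 45 pairs, 40 had an expected count of at least 5 cells with both genes in each library. The median odds ratio of these pairs was 1.72 in control and 1.78 in FGF9-treated cells, where pairs of all genes with at least 10 CPM had medians of 1.01 and 1.01. An odds ratio of at least 2 was reached by 18 of 40 pairs in control, beside 1.56% of all gene pairs, and by 16 of 40 in FGF9-treated cells, beside 1.5%. An odds ratio under 1 was found for 1 pair in control (Mdm2 and Bax, 0.968) and 2 pairs after FGF9 (Bax and Apaf1, 0.954, and Mdm2 and Eda2r, 0.986).

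The highest odds ratio of the 40 pairs in both libraries was that of Ccng1 and Eda2r (11.5 and 9.57). Cdkn1a and Phlda3 were found together in 62 control cells, where 10.5 would be so if they were independent (odds ratio 11.02), and in 52 FGF9-treated cells, where 15.9 would be (4.50). Cdkn1a and Plk2 had odds ratios of 10.5 and 5.26, and Cdkn1a and Ccng1 of 8.61 and 5.21. Cdkn1a and Bbc3 had 4.95 and 4.80. Among the genes of apoptosis, Bbc3 had a median of 2.79 and 3.24 over its pairs, above Bax (1.69 and 1.54), Apaf1 (1.59 and 1.52) and Trp53inp1 (1.61 and 1.47). Mdm2 had the lowest median, 1.30 and 1.12, and none of its pairs exceeded 1.66 in control or 1.38 in FGF9-treated cells.

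**Figure D3:**
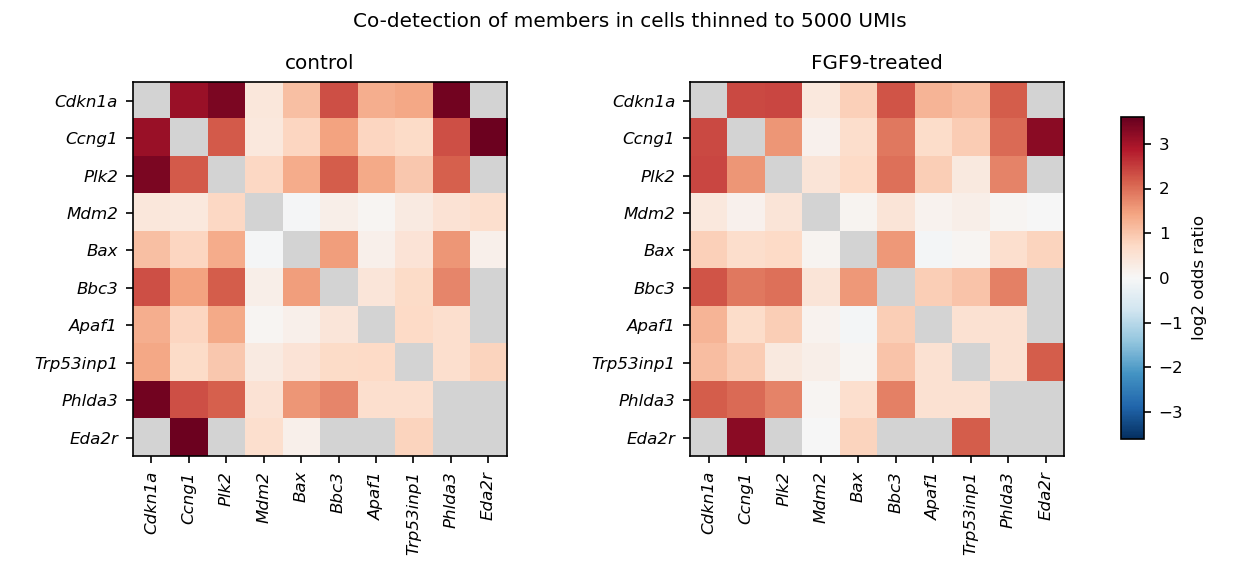
Log2 odds ratio of finding both genes of a pair in a cell, in control (left) and FGF9-treated cells (right) thinned to 5000 UMIs; grey squares are the diagonal and pairs with an expected count under 5. Cdkn1a, Ccng1, Plk2, Phlda3 and Bbc3 form a block of high values, and the row of Mdm2 is close to 0.

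A small set of cells held many of the 10 genes at once. In control, 132 of 4141 thinned cells (3.19%) had at least 5 of the genes, where 34.9 cells would if the genes were independent, and 32 cells had at least 7, where 0.107 would. In FGF9-treated cells 162 of 4515 (3.59%) had at least 5, where 44.2 would, and 33 had at least 7, where 0.177 would. The shares of such cells were thus alike in size in both libraries. Cells of a single library are not replicates, and no test was made of these counts.

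Each gene was then measured in the 3% of cells with most UMIs of the other 9 genes per depth, called high cells here, 125 in control and 136 in FGF9-treated cells. Leaving the gene itself out keeps its own counts from choosing the cells. In both libraries 8 of the 10 genes were at least 2-fold higher in high cells than in the other cells, beside 0.781% of the other genes in control and 0.574% in FGF9-treated cells, for which high cells were chosen by all 10 genes. The shares of other genes cover only those with at least 10 CPM in that library. The 8 genes include some below it, namely Eda2r in both libraries, Apaf1 in control and Bbc3 after FGF9.

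Cdkn1a stood at 264 CPM in high cells (242 to 287) and 8.01 CPM in other cells (7.34 to 8.73) of the control. In FGF9-treated cells it stood at 246 CPM (225 to 269) and 15.6 CPM (14.6 to 16.5). High cells thus held 50.4% of all Cdkn1a UMIs of the control and 33.5% of those after FGF9, while they held 2.997% and 3.086% of all UMIs. Plk2 had 119 and 6.80 CPM in control and 126 and 15.7 CPM in FGF9-treated cells. Ccng1 had 428 and 37.1 CPM in control and 385 and 44.95 CPM in FGF9-treated cells.

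The folds of the other genes covered a wide range. Phlda3 was 13.2-fold higher in high cells in control and 9.70-fold in FGF9-treated cells. Bbc3 was 9.14-fold and 9.08-fold higher, and Eda2r 19.3-fold and 13.9-fold, the latter from 54 and 62 UMIs in high cells. Trp53inp1 (3.39 and 3.80) and Apaf1 (3.56 and 4.21) had lower folds. Bax (1.71 and 1.91) and Mdm2 (1.84 and 1.85) were the genes under 2-fold. Even so, their counting intervals lay above 1, with 1.63 to 1.80 for Bax and 1.67 to 2.01 for Mdm2 in control. Every one of the 10 genes was therefore higher in the cells chosen by the other 9, in both libraries.

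**Figure D4:**
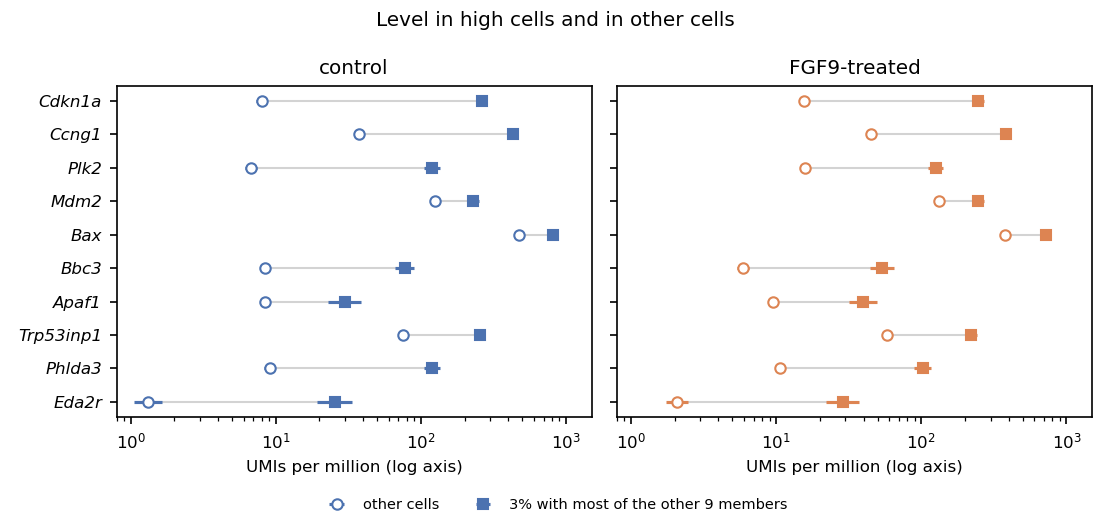
CPM (log axis) of each gene in the 3% of cells with most UMIs of the other 9 genes (filled squares) and in the other cells (open circles), with 95% counting intervals, in control (left) and FGF9-treated cells (right). The open circles of Cdkn1a and Plk2 lie farther right in FGF9-treated cells, while the squares of Cdkn1a (264 and 246 CPM) and of Plk2 (119 and 126 CPM) have overlapping intervals.

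The difference between the libraries in Cdkn1a and Plk2 lay in the other cells. There the log2 ratio of FGF9-treated over control was 0.96 (0.80 to 1.11) for Cdkn1a and 1.21 (1.04 to 1.37) for Plk2. In high cells it was -0.10 (-0.28 to 0.08) and 0.08 (-0.17 to 0.34), so that the counting intervals of high and other cells did not overlap for either gene. These intervals take each UMI as independent and are too narrow for genes held in few cells, as both were. Whether high and other cells differ in this ratio was not tested. Ccng1 had 0.28 (0.20 to 0.35) in other cells and -0.15 (-0.29 to -0.01) in high cells. Bbc3 was lower in both, at -0.51 in other cells and -0.52 in high cells. Bax (-0.33 and -0.17) and Trp53inp1 (-0.37 and -0.20) were below 0 in both as well.

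High cells were much like the rest in depth and mitochondrial share. Their median was 14764 UMIs in control, beside 14825.5 in other cells, and 13563.5 beside 13046 in FGF9-treated cells. The median mitochondrial share was 10.5% beside 9.45%, and 9.76% beside 9.16%. Germ cell markers summed to 3724 CPM in high and 4058 CPM in other control cells, and to 3158 and 3432 CPM in FGF9-treated cells. Of the 12 feeder markers, 10 had a higher CPM in high than in other cells of the control and 7 in those of the FGF9-treated library. Col3a1 and Sox7 had 0 UMIs in the high cells of both libraries, and Col1a2 had 3 and 0. The 12 feeder markers together stood at 247 CPM in high and 166 CPM in other control cells and at 269 and 235 CPM in FGF9-treated cells, beside 15601 and 22251 CPM in feeder-like cells. Vim and S100a6 are among these markers and also set the limit that defined feeder-like cells. Without them the sums were 206 and 156 CPM in control and 220 and 200 CPM in FGF9-treated cells. Feeder-like cells then had 7830 and 10462.5 CPM. In the high and other cells of the control Vim was at 21.5 and 3.08 CPM, S100a6 at 19.6 and 7.29 CPM, Sparc at 14.8 and 5.72 CPM and S100a4 at 9.07 and 1.48 CPM. In cells with no UMI of Vim or S100a6, 8 of the 10 genes were again at least 2-fold higher in high cells in each library, with 35.4-fold and 21.7-fold for Cdkn1a and 15.9-fold and 10.9-fold for Plk2.

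Feeder-like cells themselves had much of some of these genes. Cdkn1a stood at 1227 CPM in feeder-like cells of the control and 1391 CPM in those of the FGF9-treated library, Phlda3 at 335 and 317 CPM and Ccng1 at 315 and 430 CPM. Plk2 had 69.3 and 96.0 CPM, and Bbc3 24.6 and 23.6 CPM. In the kept cells the 11 feeder markers found in feeder-like cells stood at 0.0284% (Col3a1) to 5.78% (Fn1) of their feeder-like level in control, with a median of 0.4499%, and at 0.0638% to 6.71% in FGF9-treated cells, with a median of 0.743%. The markers include Vim and S100a6, by which feeder-like cells were chosen. These shares differ too widely to give one level of feeder RNA, and its part in the level of Cdkn1a was not tested. Outside the high cells, among cells with no UMI of Vim or S100a6, the levels in the order control and FGF9-treated were 6.37 and 9.59 CPM for Cdkn1a and 6.28 and 11.2 CPM for Plk2.

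Barcodes outside the filter on genes and mitochondrial share, of which there were 1124 and 1359, had Cdkn1a at 5.16 CPM (16 UMIs) and 11.8 CPM (44 UMIs) in the order control and FGF9-treated, and Plk2 at 7.10 (22 UMIs) and 8.56 CPM (32 UMIs). After thinning to 5000 UMIs, Cdkn1a was found in 4.54% of control cells (3.93 to 5.22) and 6.36% of FGF9-treated cells (5.66 to 7.11), and Plk2 in 3.77% (3.21 to 4.39) and 7.20% (6.46 to 7.99). Feeder-like cells, thinned in the same way from median depths of 20517 and 26481 UMIs, had shares of 83.9% and 93.7% for Cdkn1a and 16.1% and 25.4% for Plk2. Without the limit on Vim and S100a6, the log2 ratio of Cdkn1a was 1.10, about 2 times that of the kept cells, and that of Plk2 was 0.97. In cells without any UMI of Vim or S100a6, of which there were 3594 and 3138, the ratios were 0.28 and 0.68. Vim itself went from 3.65 CPM in the control to 18.5 CPM in the FGF9-treated library, so that this choice of cells differs between the libraries.

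Cell cycle genes differed between the libraries as well. Of 14 S phase genes, 7 were higher in FGF9-treated cells and none lower, with a median log2 ratio of 0.52, and of 14 G2/M genes 9 were higher and none lower (0.54). Of all genes 5.78% were higher and 5.95% lower. Rrm2 and Cdc6 reached 10 CPM in the FGF9-treated library alone, so a call for them could only be higher. Rrm2 (1.83), Uhrf1 (1.03), Cdc6 (0.76) and Pcna (0.75) led the S phase genes, and Mki67 (1.92), Top2a (1.11), Plk1 (0.83) and Nusap1 (0.81) the G2/M genes. Cells were therefore split into 3 tiers of equal size by the share of their UMIs in these 28 genes, with limits set over both libraries. The highest tier held 1034 control and 1864 FGF9-treated cells. Of the high cells, 12.8% in control and 33.8% in FGF9-treated cells fell in the highest tier, beside 25.2% and 41.3% of other cells.

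Cdkn1a was lowest in the middle tier of cells in both libraries. From the lowest to the highest tier it stood at 24.0, 7.91 and 18.2 CPM in control and at 18.5, 10.4 and 31.3 CPM in FGF9-treated cells. Its log2 ratio between the libraries was -0.37 (-0.58 to -0.17), 0.40 (0.10 to 0.69) and 0.78 (0.60 to 0.96), so that the direction turned in the lowest tier. Ccng1 turned there as well, at -0.12 (-0.24 to -0.009), beside 0.2995 and 0.31 in the middle and highest tier. Phlda3 had -0.20 and -0.06 in the lowest and middle tier, with intervals that held 0, and 0.43 in the highest. Plk2 had ratios of 0.20 (-0.04 to 0.44), 0.69 (0.37 to 1.01) and 1.03 (0.822 to 1.248).

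Without the high cells this pattern was different. Cdkn1a then stood at 7.73, 5.45 and 12.2 CPM in control and at 8.36, 6.79 and 24.1 CPM in FGF9-treated cells from the lowest to the highest tier. Its log2 ratio was 0.11 (-0.23 to 0.45) and 0.32 (-0.05 to 0.68) in the lowest and middle tier, with intervals that held 0, and 0.98 (0.76 to 1.20) in the highest. Plk2 had 0.59 (0.25 to 0.93), 0.77 (0.41 to 1.12) and 1.16 (0.93 to 1.40). Outside the high cells, the interval for Cdkn1a thus left out 0 in the highest tier, and that for Plk2 in all 3 tiers; the difference between tiers was not tested. Bbc3 had ratios of -0.55, -0.41 and -0.53 in the tiers without high cells. The tiers still differ in their makeup between the libraries, and the part of the cell cycle in these differences was not tested.

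**Figure D5:**
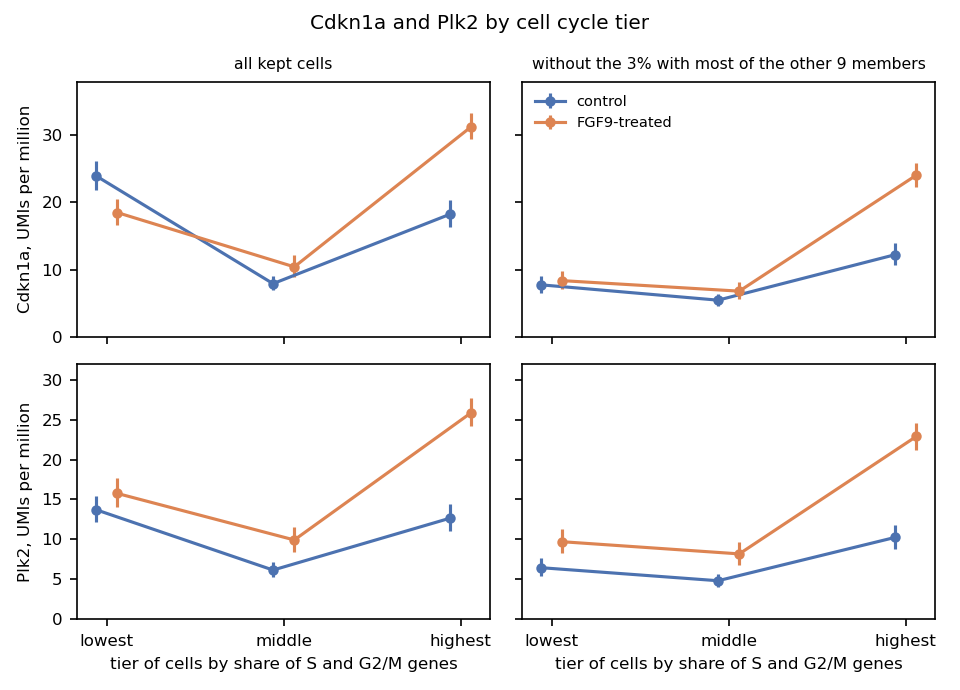
CPM of Cdkn1a (top) and Plk2 (bottom) by tier of cells by the share of UMIs in S and G2/M genes, in all kept cells (left) and without the 3% of cells with most UMIs of the other 9 genes (right), with 95% counting intervals. On the left control cells exceed FGF9-treated cells for Cdkn1a in the lowest tier (24.0 and 18.5 CPM), and on the right the curves part in the highest tier (12.2 and 24.1 CPM).

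Other genes of the p53 pathway came from lists of 25 further targets, 13 regulators and 16 apoptosis genes. Of the 25 further targets, 15 reached 10 CPM, of which none was higher and 1 was lower in FGF9-treated cells, beside 5.78% and 5.95% of all genes. The lower one was Btg2, an antiproliferative gene, with 158 and 102 CPM (-0.63, -0.67 to -0.59). Pmaip1, which encodes the BH3-only protein NOXA, had a log2 ratio of 0.41, Polk, a DNA polymerase of damage bypass, 0.39, and Aen, a nuclease of apoptosis, -0.34. High cells of the control had at least 2-fold more of 6 of 14 further targets with at least 10 CPM, beside 0.781% of all genes outside the 10. Those of the FGF9-treated library had this for 7 of 15, beside 0.574%. The 5 counted in both were Gtse1 (4.20-fold and 3.64-fold), Tnfrsf10b (3.15 and 3.698), Btg2 (2.85 and 3.29), Ei24 (2.76 and 2.46) and Aen (2.36 and 2.31). Pmaip1 was counted in control (2.78, beside 1.94 after FGF9), and Abhd4 after FGF9 (2.47, beside 1.33 in control). Polk was counted after FGF9 alone (3.401), as it was under 10 CPM in control (8.98), where its ratio was 3.62. Sesn1 (1.13 and 0.636), Xpc (0.718 and 0.904) and Tigar (0.875 and 0.893), chosen as examples after their values were seen, were under 2-fold in both.

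Regulators of p53 did not share the pattern. Trp53, the gene of p53 itself, had 74.7 CPM in the control library, beside 81.3 CPM with FGF9, and was 1.26-fold and 1.16-fold higher in high cells. Of 11 regulators with at least 10 CPM, Chek1, a kinase of the replication checkpoint, was called higher (0.89) and Kat5, an acetyltransferase, lower (-0.62). Among all genes 5.78% were called higher and 5.95% lower. From the lowest to the highest cycle tier the ratio of Chek1 was 0.09, 0.42 and 0.89. Atr had 0.20 and Cdkn2a -0.16. Only Mdm4, the partner of MDM2, was at least 2-fold higher in high cells, and in control alone (2.12, beside 1.88 in FGF9-treated cells). Of 12 apoptosis genes, only Dapk1, a death-associated kinase, was called lower (-0.65), beside 5.95% of all genes. Bid had -0.43 and Xiap 0.39. Dapk1 was 3.604-fold higher in high cells in control and 3.97-fold after FGF9. After FGF9 Dapk1 was under 10 CPM (7.83), so its call between the libraries could only be lower. None of the S phase or G2/M genes was 2-fold higher in high cells in either library.

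Among 7900 further genes with at least 10 CPM in both libraries, those with the highest ratio of high to other cells in the lower of both libraries were Neb, Cox6b2, Serpine2, Gtse1, Exoc4, Tnfrsf10b, Btg2, Zfp958, Thyn1 and Ddias. Neb, which encodes the muscle protein nebulin, was 6.82-fold higher in control and 7.11-fold in FGF9-treated cells. Cox6b2, a testis form of a cytochrome oxidase subunit, was 5.86-fold and 5.68-fold higher, and Serpine2, a protease inhibitor, 5.44-fold and 4.49-fold. Gtse1, Tnfrsf10b and Btg2 were on the list of further targets. Exoc4, a subunit of the exocyst, was 3.21-fold and 3.31-fold higher in high cells, and Ddias, a suppressor of damage-induced apoptosis, 2.60-fold and 3.21-fold. Tnfrsf10b, a death receptor gene, had a log2 ratio between the libraries of -0.03. Thyn1 had the largest ratio upward between the libraries among these genes (0.45), and Btg2 the largest downward.

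Positions are those of GENCODE M21 on mm10, the build of the counts. Cdkn1a (ENSMUSG00000023067) lies on chromosome 17 from 29090976 to 29100727, Plk2 (ENSMUSG00000021701) on chromosome 13 from 110395046 to 110400844, Ccng1 (ENSMUSG00000020326) on chromosome 11 from 40748552 to 40755311 and Mdm2 (ENSMUSG00000020184) on chromosome 10 from 117688875 to 117710758. The windows shown above were set by RefSeq starts. Those of Mdm2 and Plk2 end before these genes, while those of Ccng1 and Cdkn1a reach past the GENCODE start into the gene. Bax overlaps the predicted gene Gm45808 on its own strand, so reads of the pair may not be separable, and its level is uncertain in that respect.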

How the data were processed

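Droplet libraries (10x 3' v3.1 with a KIT antibody tag) were made from 1 control and 1 FGF9-treated culture. The deposited matrices hold raw UMI counts, genes by barcodes, from the authors' run of Cell Ranger (3.1.0 in the matrix header) on mm10 (GENCODE vM23). Seurat 3.1 is named in the submitters' processing notes for later steps. Passages are given as 9-12 by the labels, and as 9-13 in one field of the FGF9-treated sample. The genes and lists were chosen with earlier results of these data known. Antibody counts were not used here.

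UMIs of kept cells were summed and divided by their total (CPM). Intervals were exact Poisson for CPM, exact conditional binomial for ratios and Clopper-Pearson for shares, all at 95% and for counting error only. Those for CPM and ratios take UMIs as independent and are too narrow for genes concentrated in few cells. No test was made, as each treatment had 1 library. Concentration used all genes with at least 10 CPM. Cells were thinned to 5000 UMIs without replacement (seed 1) for detection. Doublets were not called; an alternative left out 76 and 123 cells with over 2.5 times the median UMIs. Named genes were all 10 members, up to 4 per list with the largest ratio in size, and the 10 genes with the highest ratio of high to other cells, without mitochondrial, ribosomal and predicted genes. Trp53, Mdm4, Gtse1, Ei24, Abhd4, Sesn1, Xpc and Tigar were named after their values were seen. One gene of the apoptosis list is not reported here. Cycle tiers without high cells, cells with no Vim or S100a6 UMI, and cells without shared barcodes were chosen after seeing the data. Motif searches were also chosen after the sequences were seen. Scripts were tested on simulated data. Computations used scipy 1.17.1, numpy 2.4.6, pandas 2.3.3 and matplotlib 3.10.9 under Python 3.11.15, and R 4.3.3 with edgeR 4.0.16 (TMM) and DESeq2 1.42.0 (median of ratios) for scaling factors.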

Additional observations from a re-analysis of the deposited data

How the results depend on the processing

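The count of 2 genes called higher became 1 (Plk2) without cells over 2.5 times the median UMIs and in cells with no Vim or S100a6 UMI, and 0 in the lowest and middle cycle tier and at a limit of 1 on the log2 ratio. The count of 1 gene called lower (Bbc3) became 0 under TMM or median of ratios scaling, up to 10% mitochondrial UMIs, no limit on Vim and S100a6, without deep cells, without the top 3% of cells, in the middle and highest tier, in cells with no Vim or S100a6 UMI, without shared barcodes and at a limit of 1. At a limit of 0.3 it became 3, with Bax and Trp53inp1. The log2 ratio of Bbc3 itself kept its sign, between -0.56 and -0.42. Without the top 3% of cells it was -0.56, and the call was lost to the limit of 10 CPM. The median log2 ratio of 0.15 became 0.30 with up to 10% mitochondrial UMIs, 0.28 without the limit on Vim and S100a6 and -0.16 in the lowest cycle tier. The cause of these changes was not tested. Among single genes with a call the direction turned for Cdkn1a (-0.37), Cdc6 (-0.40), Top2a (-0.15), Plk1 (-0.27) and Nusap1 (-0.44) in the lowest tier, and for Cdc6 (-0.19), Top2a (-0.053) and Nusap1 (-0.093) in the middle tier, which were cut by a share that includes these cell cycle genes. Of members without a call, Ccng1 (-0.12) and Phlda3 (-0.20) changed sign in the lowest tier and Phlda3 also in the middle tier (-0.06) and in cells with no Vim or S100a6 UMI (-0.008).

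The count of 4 concentrated genes became 2 in each library on cells thinned to 5000 UMIs, where counting alone puts more UMIs in few cells. The median share in the top cells, 38.3% in control and 37.4% in FGF9-treated cells, became 18.4% and 18.5% for the top 1%, 49.99% and 50.3% for the top 5%, and 64.0% and 55.0% after thinning. It became 41.4% in FGF9-treated cells without the limit on Vim and S100a6. The median odds ratio became 2.66 and 2.55 without thinning, where depth adds to it, and 1.18 and 1.35 without the top 3% of cells, which were chosen by the same genes. The counts of further targets in high cells stayed within 1 of their value under the alternatives run. Of 644 values under all settings, 509 moved by less than their counting interval or 1.5 times and 127 by more, and 8 called values turned.

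With 1 library per treatment, variation between cultures is not known. Eda2r, Bbc3, Apaf1 and Plk2 rest on the fewest UMIs in control, and their ratios have wide intervals.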
